A study of Rattus norvegicus with 24 samples.

Results

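The mRNAs of 55 cell cycle and proliferation genes were examined in the lungs of rats that had inhaled hexanal. The genes were chosen by symbol as components of 1 cellular process, with earlier results of these data known. They cover the licensing of replication origins and the replication fork, nucleotide supply, cyclins and Cdk1, transcription factors, mitotic kinases and checkpoint proteins, the spindle and cytokinesis, and the DNA damage response of S phase. Of the 55 genes, 48 were matched to the array by accession and 47 passed the filter, out of 21255 genes or unnamed probes tested. Top2a, Bub1b, Plk4, Cenpe, Mcm5, E2f8 and Melk were not matched to a probe here. Brca1 was not well above background on any of the 24 arrays and has no fold change.

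Fischer-344 rats of both sexes, 7 to 8 weeks old, breathed filtered clean air (control group) or hexanal, a volatile aliphatic aldehyde, at 600 ppm (low-dose), 1000 ppm (middle-dose) or 1500 ppm (high-dose). Each group had 3 males and 3 females, and the labels name no other treatment. Exposure was nose-only for 4 h a day on 5 days a week. It lasted 4 weeks by the study's methods and 5 weeks by the sample labels, which also give the same dose numbers in mg per cubic meter in their protocol. The comparisons asked whether hexanal changed the lung's mRNA levels and whether a change grew with dose.

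Before a cell divides, the MCM helicase is loaded on replication origins and licensed with the help of Cdc6, and cyclin E and cyclin A kinases then start DNA synthesis. Cyclin B with Cdk1 drives entry into mitosis, where Aurora and Polo-like kinases, kinesins and kinetochore proteins separate the chromosomes. Most cells of an adult lung rest outside the cycle. The cells that these mRNAs came from were not measured. In RNA of whole lung, fewer dividing cells cannot be told apart from less RNA in each of them.

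Promoters of S phase genes often hold E2F sites, and promoters of mitotic genes often hold CCAAT boxes and a cell cycle homology region (CHR). The 250 bases before the start site were read from RefSeq (GRCr8) for 36 of the 47 genes. They are shown for 5 genes that the results turn on: Cdk1, which rose and fell with most of the others from rat to rat; Prc1 and Mcm3, which differed between the sexes; Tyms, which had the smallest p at the high dose; and Fancd2, the 1 gene called at any dose. Each sequence runs 5′ to 3′ on the gene's strand, and capitals mark, on either strand, the CCAAT box (by those letters), the CHR core (letters TTTGAA) and an E2F match, which is any of TTTGGCGC, or else TTTCGCGC, or else TTTCCCGC, or else TTTGCCGC.
Cdk1, chr20:19265043-19265292, plus strand: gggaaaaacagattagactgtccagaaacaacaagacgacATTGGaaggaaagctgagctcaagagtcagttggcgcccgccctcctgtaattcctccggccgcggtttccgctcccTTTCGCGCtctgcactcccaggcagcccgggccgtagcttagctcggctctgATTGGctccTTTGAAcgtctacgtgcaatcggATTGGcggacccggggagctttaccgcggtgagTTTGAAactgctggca
Prc1, chr1:143659231-143659480, plus strand: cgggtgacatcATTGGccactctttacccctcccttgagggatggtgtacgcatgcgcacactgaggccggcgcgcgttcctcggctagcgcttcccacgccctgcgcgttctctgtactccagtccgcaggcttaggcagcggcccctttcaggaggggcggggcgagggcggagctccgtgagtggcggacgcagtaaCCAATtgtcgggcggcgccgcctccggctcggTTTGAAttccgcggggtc
Mcm3, chr9:30733747-30733996, minus strand: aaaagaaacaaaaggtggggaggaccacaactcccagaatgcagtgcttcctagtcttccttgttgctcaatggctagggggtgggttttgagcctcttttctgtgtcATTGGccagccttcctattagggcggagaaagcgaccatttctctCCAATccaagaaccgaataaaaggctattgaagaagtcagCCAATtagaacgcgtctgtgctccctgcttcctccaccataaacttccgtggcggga
Tyms, chr9:120776084-120776333, minus strand: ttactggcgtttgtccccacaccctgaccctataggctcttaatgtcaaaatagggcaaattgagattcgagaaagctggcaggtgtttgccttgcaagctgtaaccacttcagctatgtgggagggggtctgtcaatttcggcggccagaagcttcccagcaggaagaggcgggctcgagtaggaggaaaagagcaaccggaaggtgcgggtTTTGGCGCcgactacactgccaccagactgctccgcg
Fancd2, chr4:148234458-148234707, plus strand: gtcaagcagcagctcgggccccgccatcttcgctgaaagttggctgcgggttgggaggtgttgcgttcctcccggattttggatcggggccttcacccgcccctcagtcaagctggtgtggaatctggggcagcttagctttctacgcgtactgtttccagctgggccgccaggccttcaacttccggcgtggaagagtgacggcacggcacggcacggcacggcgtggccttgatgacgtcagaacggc

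In the Cdk1 sequence, CCAAT letters begin 210, 81 and 49 bases, CHR letters 72 and 16 bases, and E2F letters 133 bases before the start site. Tyms holds E2F letters 37 bases before its start and neither of the other motifs, Prc1 and Mcm3 hold CCAAT but no E2F letters, and the Fancd2 window holds none of the 3. Over the 36 genes, CCAAT was found in 26 (72.2%, against 34.3% of 27457 promoters of the same length), the CHR core in 12 (33.3% against 16.0%) and the E2F letters in 7 (19.4% against 1.81%). By role, CCAAT was in 10 of 12 promoters of spindle and chromosome genes and 7 of 8 of replication genes, and the E2F letters were in 0 of 12 and 4 of 8. These are matches of letters, and no binding was measured.

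Lung RNA was labeled with Cy3 and hybridized alone, 1 rat to each one-colour Agilent array. Levels are given as relative log2 signal, the log2 processed signal of a probe minus the 75th percentile of its own array, so that differences between groups are log2 differences. Median processed signals of the 47 probes ran from 31.1 (Hmmr) to 8034 (Mcm7), and 37 of the 47 genes were well above background on all 24 arrays; these signals describe detection and not the order of the mRNAs. No probe was saturated, and the 75th percentile of the signal was 1701 on the array of rat 36, the lowest, and up to 3133 on the others. The 6 slides of 4 arrays each held 1 sex, and only low-dose rats 6 and 26 shared a slide with control rats. The RNA carried lung markers in every group: Sftpc, Sftpb and Ager had mean relative log2 signals of 7.77, 7.19 and 4.55. The p-values measure the spread between these rats, whose RNA came from separate animals.

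Most of the 47 genes lay slightly below the control group at each dose. The median log2 difference was -0.11 at 600 ppm, -0.12 at 1000 ppm and -0.17 at 1500 ppm, against -0.001, 0.005 and 0.01 over all 21255 features. In the same order of doses, 42, 33 and 36 of the 47 genes were below control, where 50.4%, 48.7% and 46.2% of all features were. By sex, 40 of the 47 were lower in females and 26 in males at 600 ppm. Their median changes there were -0.23 in females and -0.03 in males (all features 0.008 and -0.006). Lower at 1000 ppm were 31 in females and 35 in males, and at 1500 ppm 36 and 38. Pairs of these genes had a median Pearson r of 0.39 over the rats, so the counts are not of independent observations. Below control at all 3 doses were 27 of the 47 genes, against 25.3% of all features; the 3 comparisons share the same 6 control rats. Of single genes, the standard deviation within groups had a median of 0.31 over these 47 and of 0.23 over all features.

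With the study's thresholds of 1.5-fold and an unadjusted p under 0.05, applied here to limma in place of the study's own per-gene test, 1 of the 47 genes was called, higher at 600 ppm, where 0.616% of all features were called (0.16% higher and 0.456% lower). By the study's own per-gene test 0 were called at each dose. In limma none was called at 1000 ppm, a count of 0 where 1.64% of all features were called (1.29% higher and 0.343% lower), or at 1500 ppm, again 0 where 1.22% were (0.701% higher and 0.522% lower). At an unadjusted p under 0.05 alone, 2 genes passed at 600 ppm (1 lower), 0 at 1000 ppm and 6 at 1500 ppm (all lower), where 4.33%, 8.99% and 6.97% of all features passed and 2.46%, 3.65% and 3.06% passed with a lower level. With Benjamini-Hochberg adjustment over all features, 0 of the 47 passed at any dose, where 0, 4 and 1 of all features did (0%, 0.0188% and 0.0047%). In no gene did the 6 treated rats lie wholly above or wholly below the 6 control rats, a separation that 0.183%, 0.198% and 0.169% of all features showed downwards and 0.0941%, 0.259% and 0.311% upwards. Two-sided exact permutation tests of 6 rats against 6 could be run for 139 of 141 pairs of gene and dose; Fancd2 at 600 ppm, the gene called, and Cenpf at 1500 ppm had a spot dropped and have none. Of the 139, 9 had p under 0.05 and the smallest adjusted p was 0.618; the smallest p this design allows is 0.00216.

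**Figure D1:**
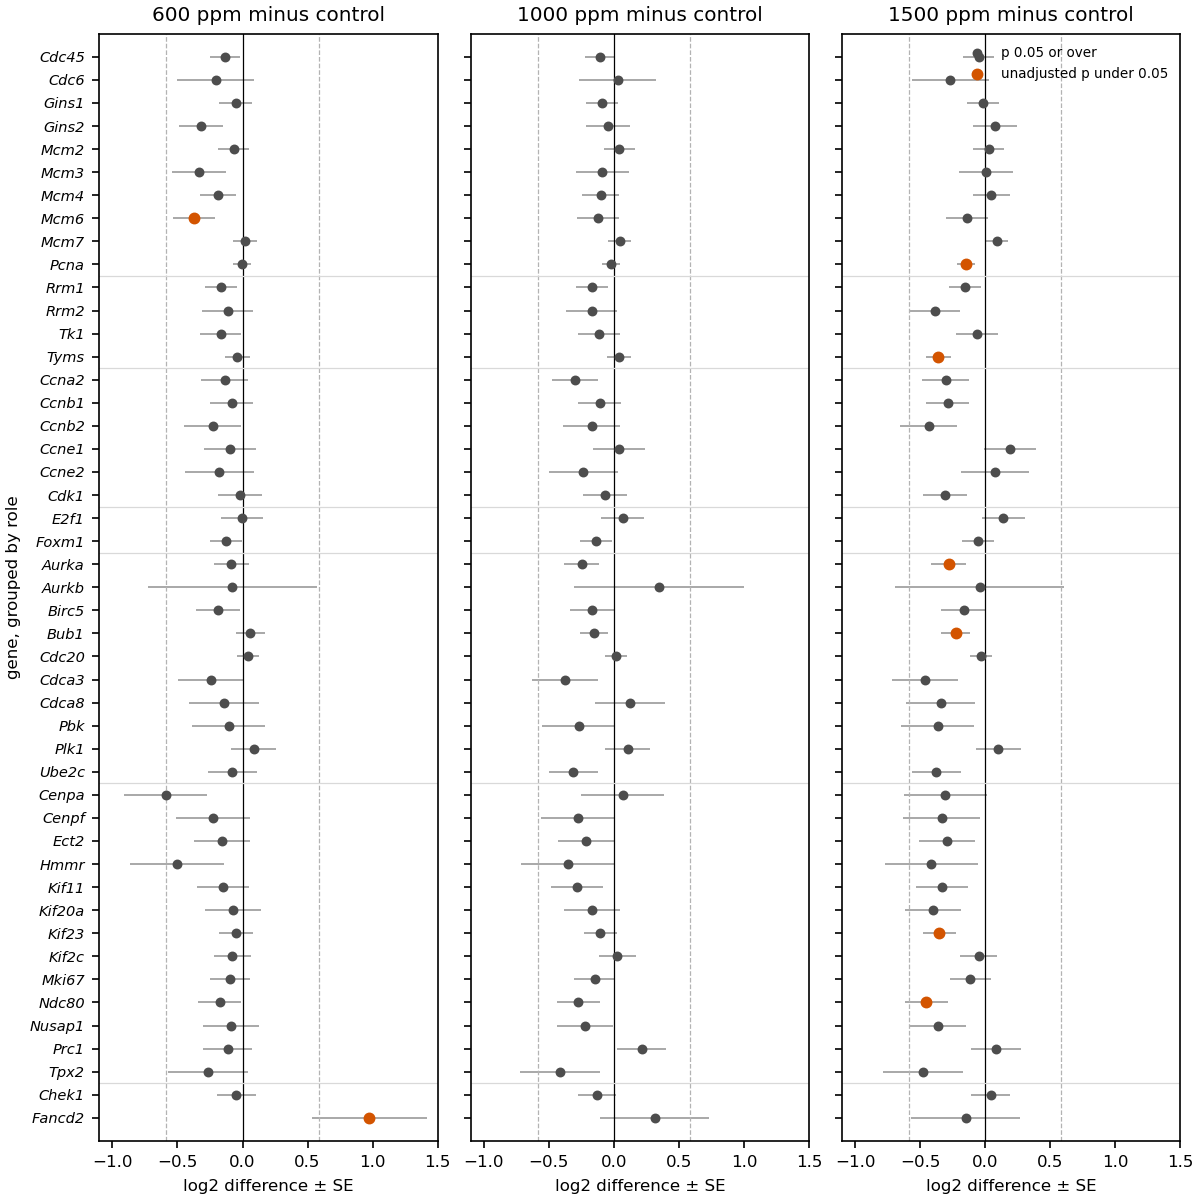
Log2 difference from control of each of the 47 genes (vertical axis, grouped by role) at each dose, with bars of 1 SE from limma; orange points have an unadjusted p under 0.05 and dashed lines mark 1.5-fold. Most points sit left of 0, by no more than 0.59, and Fancd2 at 600 ppm is the only point past a dashed line that is orange.

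One high-dose rat stood apart from the rest, female rat 36. The mean of the 47 genes, each taken as the deviation from its own mean over 24 rats, was 0.53 in rat 36, the highest of the 24, and ran from -0.31 to -0.08 in the other 5 high-dose rats. In the control group it ran from -0.11 (rat 2, male) to 0.25 (rat 21, female), with a mean of 0.10 ± 0.13 (SD, n = 6). The means of the low-dose, middle-dose and high-dose groups were -0.02 ± 0.11, -0.0002 ± 0.19 and -0.08 ± 0.31 (SD, n = 6 each). The ranges of all these groups overlapped that of the control group. Rat 36 was the highest of its group in 36 of the 47 genes, against 28.5% of all features. Its array had the lowest 75th percentile of the 24, as given above, and its part in the values was not tested. T cell markers, 5 of 5 tested, summed to 3.76 times the array's 75th percentile in rat 36 and to 3.47 and 3.25 in the other high-dose females, and control female 22 was at 3.78. The sum of the 3 ciliated markers tested was 9.16 in rat 36, the highest of the 24 rats, and 6.73 and 5.87 in the other high-dose females. The sum of heart muscle markers, 6 of 7 tested, was 74.9 in rat 36, 124 and 4.57 in those females, and 3.26 to 35.6 in the control group. Their part in the values of rat 36 was not tested.

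**Figure D2:**
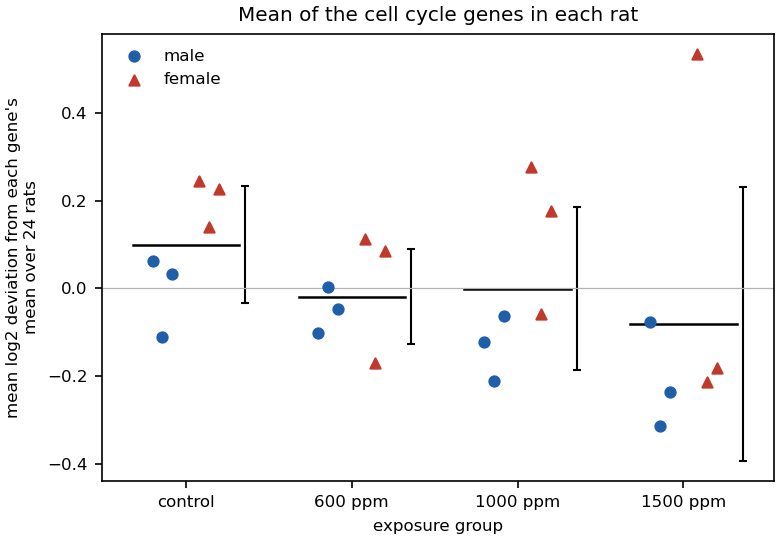
Mean log2 deviation of the cell cycle genes in each rat (vertical axis) by exposure group; circles are males, triangles females, lines group means and bars 1 SD (n = 6). Rat 36 lies at 0.53, and the other 5 high-dose rats lie between -0.31 and -0.08.

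**Figure D3:**
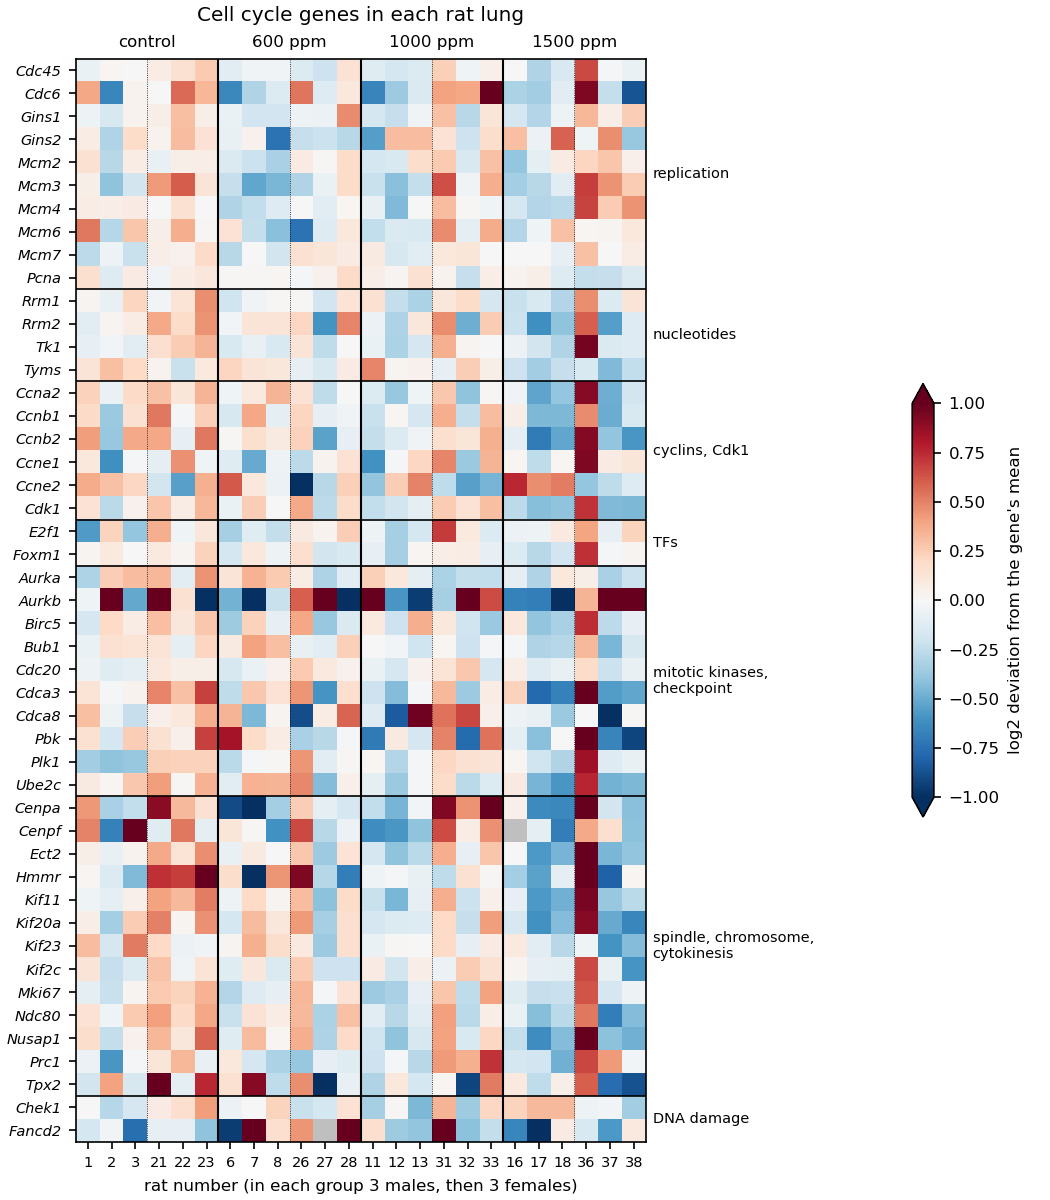
Log2 deviation of the 47 genes (rows, by role) from their mean over 24 rats (columns, by group and sex), with colours limited to 1 in either direction and grey for a missing spot. The column of rat 36 is red from the cyclins through the spindle genes, while rats 17, 18, 37 and 38 of the same group are mostly blue; Aurkb and Ccne2 do not follow the other rows.

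The licensing and fork genes, which load and run the replicative helicase, were the closest to control at the high dose. From the low to the high dose, 9, 7 and 5 of the 10 tested were below control, and their medians were -0.16, -0.07 and -0.01. Mcm6, a subunit of the MCM helicase, had relative log2 signals of -3.70, -3.24 and -2.88 (lowest, median, highest) in the control group and of -4.15, -3.60 and -3.27 in the low-dose group. The low-dose rats reached lower, with 2 of 6 below every control, and the others overlapped. The difference was -0.37 (SE 0.16, p = 0.0291 and adjusted p = 0.997 in limma; exact permutation p = 0.0649). Mcm2, another subunit, differed by -0.07, 0.04 and 0.03 at the 3 doses (SE 0.12 each), and its dimmer probe did not share the sign at 1500 ppm.

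Pcna, the sliding clamp of DNA polymerases, varied least between rats, with an SD within groups of 0.11. Its relative log2 signal ran from 0.82 to 1.11 in the control group (median 1.03) and from 0.72 to 1.01 in the high-dose group (median 0.82). In 3 of the 6 high-dose rats, all females, it was below every control rat, and the groups overlapped. It was 9.95% lower, a log2 difference of -0.15 (SE 0.07; p = 0.0421 and adjusted p = 0.700 in limma; exact permutation p = 0.0519).

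Among the genes of nucleotide supply, Tyms, thymidylate synthase, had the smallest p of all 47 genes. Its relative log2 signal was -3.02, -2.68 and -2.50 (lowest, median, highest) in the control group, -2.94, -2.70 and -2.58 in the low-dose group, -2.88, -2.75 and -2.31 in the middle-dose group, and -3.24, -3.03 and -2.95 in the high-dose group. In the high-dose group 4 of 6 values were under the whole control range, and only control female 22 reached the high-dose range. The high-dose difference was -0.36, or 22.1% lower (SE 0.09; p = 0.000918 and adjusted p = 0.310 in limma; exact permutation p = 0.00649), with -0.47 in males and -0.25 in females. At 600 and 1000 ppm it was -0.04 and 0.04. Rat 36 did not stand apart here, at -2.95, and without it the difference was -0.38.

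Rrm2, the small subunit of ribonucleotide reductase, differed by -0.39 at 1500 ppm (SE 0.20; p = 0.0607 in limma; exact permutation p = 0.0801). All high-dose rats but rat 36, 5 of 6, were under the control range while rat 36 was over it. The dimmer probe of Rrm2 differed by -0.02 at 1500 ppm, so the size of the difference depends on the probe. Rrm1, the large subunit, and Tk1, thymidine kinase, differed by -0.16 and -0.06 at that dose, and all 4 genes of nucleotide supply were below control there without passing the adjusted test.

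Cdk1, the kinase that drives mitosis, had relative log2 signals of -1.001, -0.63 and -0.40 (lowest, median, highest) in the control group and of -1.19, -1.15 and -0.01 in the high-dose group. Rat 36 was the highest of the group at -0.01, above every control rat, and 4 of the other 5 were under the control range. The difference was -0.31 (SE 0.17; p = 0.0812 in limma; exact permutation p = 0.152), and it was -0.02 at 600 ppm and -0.07 at 1000 ppm. Its partner Ccnb1, cyclin B1, differed by -0.08, -0.11 and -0.29 at the 3 doses (SE 0.17 each) and Ccnb2 by -0.23, -0.17 and -0.44. Ccne1, a cyclin of S phase entry, had the largest positive difference of the 47 genes at 1500 ppm, 0.19 (SE 0.20; exact permutation p = 0.422), and 0.03 without rat 36.

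Of the transcription factors, E2f1, an activator of S phase genes, differed by -0.004, 0.07 and 0.14 at the 3 doses (SE 0.16 each), and Foxm1, an activator of mitotic genes, by -0.13, -0.13 and -0.06. The dimmer probe of E2f1 differed by -0.14, -0.38 and -0.42, so the sign at the middle and high doses depends on the probe.

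Of 10 mitotic kinase and checkpoint genes, 9 were below control at 1500 ppm, with a median of -0.26. Aurka, the Aurora kinase of the spindle poles, differed by -0.28 (SE 0.13; p = 0.0477 and adjusted p = 0.716 in limma; exact permutation p = 0.0801), with 1 of 6 high-dose rats below the control range of -1.91 to -1.15. Bub1, a kinase of the spindle checkpoint, differed by -0.23 (SE 0.11; p = 0.0490, adjusted p = 0.717; exact permutation p = 0.0952), with 4 of 6 values under the control range and rat 36 over it. Cdca3, which promotes mitotic entry, differed by -0.24, -0.37 and -0.46 at the 3 doses (SE 0.25 each). Plk1, the Polo-like kinase, differed by 0.08, 0.11 and 0.10 (SE 0.17 each), and Aurkb, the Aurora kinase of the centromere, by -0.08, 0.35 and -0.04 with an SE of 0.65, the widest of the 47, since its relative log2 signal ran from -4.89 to -1.80 among the control rats alone.

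The spindle, kinetochore, chromosome and cytokinesis genes showed the lowest median of the 7 roles at the high dose. All 13 tested were below control at the low dose, 10 at the middle dose and 12 at the high dose, and their medians were -0.15, -0.21 and -0.34. Ndc80, the kinetochore protein that grips microtubules, had relative log2 signals of -3.63, -3.36 and -3.18 (lowest, median, highest) in the control group, -3.91, -3.48 and -3.26 in the low-dose group, -3.87, -3.70 and -3.18 in the middle-dose group, and -4.28, -3.94 and -3.07 in the high-dose group. At the high dose 5 of 6 values were under the control range and the other, that of rat 36, was over it. The differences were -0.17, -0.27 and -0.45 (SE 0.16 each), and the last had p = 0.0116 and adjusted p = 0.590 in limma and an exact permutation p of 0.0390.

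Kif23, a kinesin of the cytokinetic midzone, differed by -0.35 at 1500 ppm (SE 0.13; p = 0.0113 and adjusted p = 0.590 in limma; exact permutation p = 0.0433). Its high-dose values ran from -2.49 to -1.80 and its control values from -2.06 to -1.37, with 3 of 6 high-dose values under the control range and rat 36 within the range of its group. Tpx2, which activates Aurka on the spindle, differed by -0.27, -0.41 and -0.48 at the 3 doses (SE 0.31 each; exact permutation p = 0.160 at 1500 ppm). Mki67, the gene of the Ki-67 antigen, a coat of mitotic chromosomes, differed by -0.10, -0.15 and -0.12 (SE 0.16 each), and its 3 probes had the same sign at every dose.

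Cenpa, the centromeric histone, had the lowest difference at 600 ppm, -0.59 (SE 0.32; p = 0.0761 in limma; exact permutation p = 0.0671), with 3 of 6 low-dose rats below every control rat. Its probe was well above background on only 2 of the 6 low-dose arrays, and on none of those 3, so the size and the order there are not measured well. At the other doses it was 0.07 and -0.31. Hmmr, a microtubule-binding protein of the spindle poles and the dimmest probe here, differed by -0.50, -0.35 and -0.42 (SE 0.36 each), with control females 21, 22 and 23 between -5.75 and -5.40 and control males between -6.88 and -6.43. Prc1, which bundles midzone microtubules, was 0.21 higher at 1000 ppm (SE 0.19; exact permutation p = 0.314) and its dimmer probe -0.07.

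Fancd2, a DNA repair protein of the Fanconi anemia pathway, was the only gene called. Its relative log2 signal was -6.25, -5.63 and -5.52 (lowest, median, highest) in the control group. In the low-dose group it was -6.45 in rat 6, -3.40 in rat 7, -5.33 in rat 8, -5.05 in rat 26 and -3.65 in rat 28, and the spot of rat 27 was marked as an outlier by the scanner software and dropped from the fit. Rats 7 and 28 were far above every control rat, rats 8 and 26 just above, and rat 6 below all of them and not well above background.

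The log2 difference of Fancd2 at 600 ppm was 0.97 (SE 0.44; adjusted p = 0.997 in limma, on 5 low-dose rats), past the unadjusted threshold. With the marked spot of rat 27 kept, at -2.88, it was 1.29. It was 0.63 without rat 7, and with the slide as a fixed block it was 0.001, which ends the call. At 1000 and 1500 ppm it was 0.31 and -0.15 (SE 0.42 each), and middle-dose rat 31 stood alone at -3.91. Chek1, the kinase that holds S phase when replication stalls, differed by -0.05, -0.13 and 0.04 (SE 0.15 each).

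**Figure D4:**
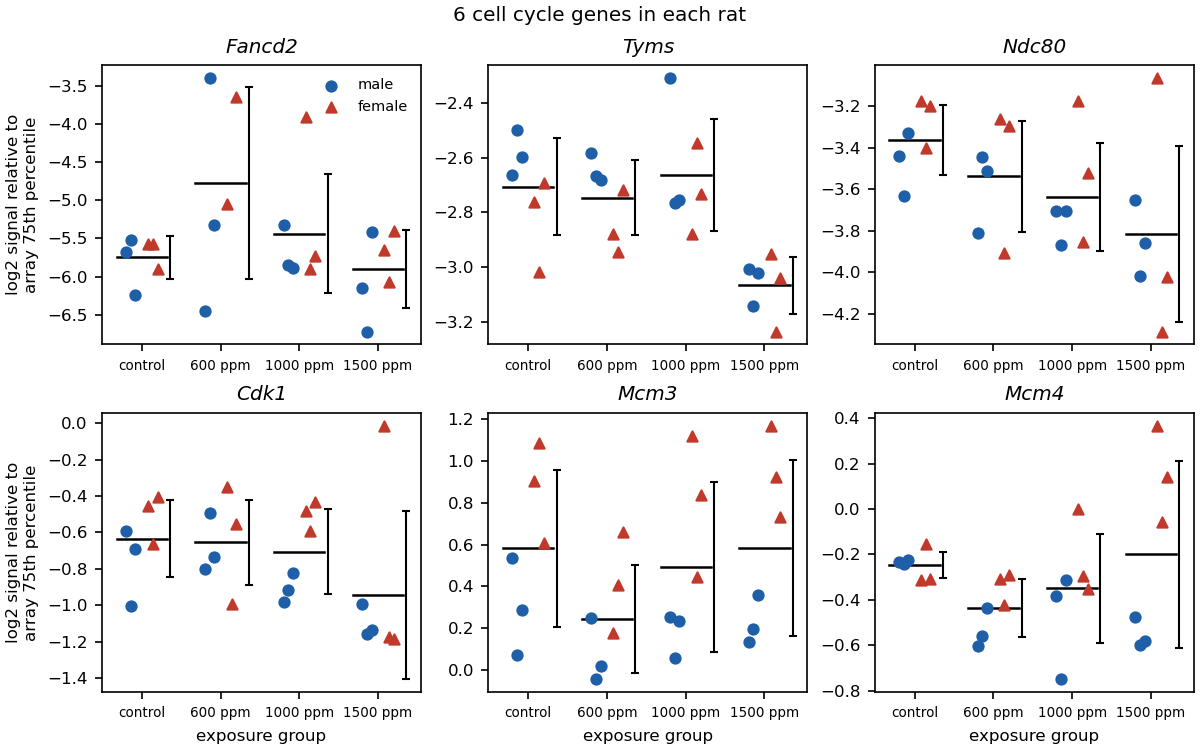
Relative log2 signal (vertical axis, each panel with its own scale) of 6 genes in each rat by exposure group; circles are males, triangles females, lines group means and bars 1 SD over the rats measured. Tyms lies between -3.24 and -2.95 in all 6 high-dose rats, Ndc80 and Cdk1 have 1 high-dose female at -3.07 and -0.01, and Fancd2 has low-dose rats at -3.40 and -3.65.

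Since 1 rat decided much of the high-dose values, they are given without it. Rat 36 was singled out by its values of these same genes, so its omission is a description and no independent test. Without it, 41 of the 47 genes were below control at 1500 ppm (47.4% of all features), with a median of -0.32. At an unadjusted p under 0.05 in limma, 22 were lower (2.92% of all features) and 0 were higher. Called lower at 1.5-fold were 6 (0.63% of all features): Ccnb2, Nusap1, Ndc80, Kif20a, Cdca3 and Pbk. Adjusted over all features, 0 passed and the smallest adjusted p was 0.223.

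By role and without rat 36, unadjusted p under 0.05 with a lower level was reached by 6 of 13 spindle and chromosome genes, 6 of 10 mitotic kinase and checkpoint genes, 4 of 6 cyclin and Cdk1 genes, 4 of 4 genes of nucleotide supply, 1 of 2 transcription factor genes and 1 of 10 licensing and fork genes. Of all features, 2.92% did so. Leaving out a rat chosen as high in most of these genes lowers their high-dose means. The counts, differences and p-values of this fit are thus a description and do not test the roles. Ndc80 then differed by -0.60 (SE 0.14; adjusted p = 0.223), Ccna2, cyclin A2, by -0.51 (SE 0.12), Cdk1 by -0.50 (SE 0.12), and Kif20a, a kinesin of cytokinesis, by -0.63 (SE 0.16). Erythroid markers were also below control in the high-dose group, 3 of the 3 tested out of 6 listed, with 1 called lower (0.522% of all features). The median of their log2 differences was -0.78 in males and -0.71 in females. Their sum, as a multiple of the array's 75th percentile, ran from 83.3 to 108 in high-dose females and from 103 to 163 in control females. In males it ran from 130 to 155 at the high dose and from 114 to 137 in the control group. Hbb had a mean relative log2 signal of 6.96, against 1.02 for Alas2 and -3.35 for Slc4a1, so the sum follows mostly Hbb. The part of the erythroid markers in these values was not tested.

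On a slope over 0, 600, 1000 and 1500 ppm, 35 of the 47 genes were negative, against 45.9% of all features. At an unadjusted p under 0.05, 7 passed (8.49% of all features), all negative (3.74%): Ndc80 (-0.30 on the log2 scale per 1000 ppm), Tyms (-0.20), Kif23, Bub1, Aurka, Ube2c and Pcna. With adjustment over all features 0 passed in limma (0.0141% of all features), and the adjusted p of Ndc80 was 0.452.

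By the adjusted test, more of the genes differed between the sexes than from control at any dose. Averaged over the 4 groups, 38 of the 47 genes were higher in females, against 55.4% of all features, with a median of 0.21 against 0.03. At an adjusted p under 0.05 in limma, 13 genes passed (27.7%, against 26.5% of all features), so the share that passed was near the background. Of the 13, 12 were higher in females (16.7% of all features) and 1 in males (9.88%). Since each slide held 1 sex, sex and slide cannot be told apart, and with slide as a random block 8 of the 47 passed (14.8% of all features).

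Replication genes made up 6 of those 12. Mcm3 had the smallest p. Its relative log2 signal ran from -0.04 to 0.53 in the 12 males and from 0.18 to 1.17 in the 12 females, and in the control, middle-dose and high-dose groups every female was above every male. It was 1.47-fold higher in females (log2 0.56, SE 0.09; adjusted p = 0.000216 in limma). Cdc6, which loads the MCM helicase, was higher by 0.54, Mcm4 by 0.28, Gins1 by 0.26, Mcm2 by 0.21 and Mcm7 by 0.21, and the dimmer probe of Mcm2 was -0.19. In the control group alone, the mean of Mcm4 was -0.26 in females and -0.23 in males, and that of Mcm2 -1.80 and -1.84. At the high dose Mcm4 was at 0.15 in females and -0.55 in males. With slide as a random block Cdc6, Gins1 and Mcm2 did not pass (adjusted p = 0.0920, 0.0503 and 0.0940 in limma), and Mcm3, Mcm4 and Mcm7 did.

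Of the mitotic genes, Cenpa was 1.66-fold higher in females (log2 0.73, SE 0.17; adjusted p = 0.00525), and Prc1 (0.40), Plk1 (0.36) and Mki67 (0.36) also passed. E2f1 (0.33) and Tk1 (0.28) completed the 12, and the dimmer probe of E2f1 was -0.12; with slide as a random block neither E2f1 nor Tk1 passed (adjusted p = 0.0681 and 0.126 in limma). Ccne2, cyclin E2, went the other way, 0.60 lower in females on the log2 scale (SE 0.15; adjusted p = 0.00592), and was higher in males in each of the 4 groups. Without rat 36, 12 of the 47 passed (21.9% of all features), 11 of them higher in females.

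Markers of other cells moved with sex as well. All 5 T cell markers and the 3 of 5 B cell markers tested were higher in females, and 4 and 2 of them passed the adjusted test. The T cell sum ran from 1.61 to 2.54 in males and from 2.11 to 3.78 in females, and the B cell sum from 0.72 to 1.77 and from 1.48 to 3.41, as multiples of the array's 75th percentile. Lower in females were 4 of 4 macrophage markers (2 by the adjusted test, Cd68 and Mrc1), 3 of 4 endothelial (2, Cldn5 and Cdh5), 4 of 4 alveolar type I (2, Ager and Aqp5), 4 of 5 alveolar type II (2), 3 of 3 erythroid (2, Alas2 and Slc4a1) and 3 of 3 neutrophil markers (1, S100a9). All 3 ciliated markers were higher in females (1, Rsph1). The part of these cells in the sex difference of the cell cycle genes was not tested.

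**Figure D5:**
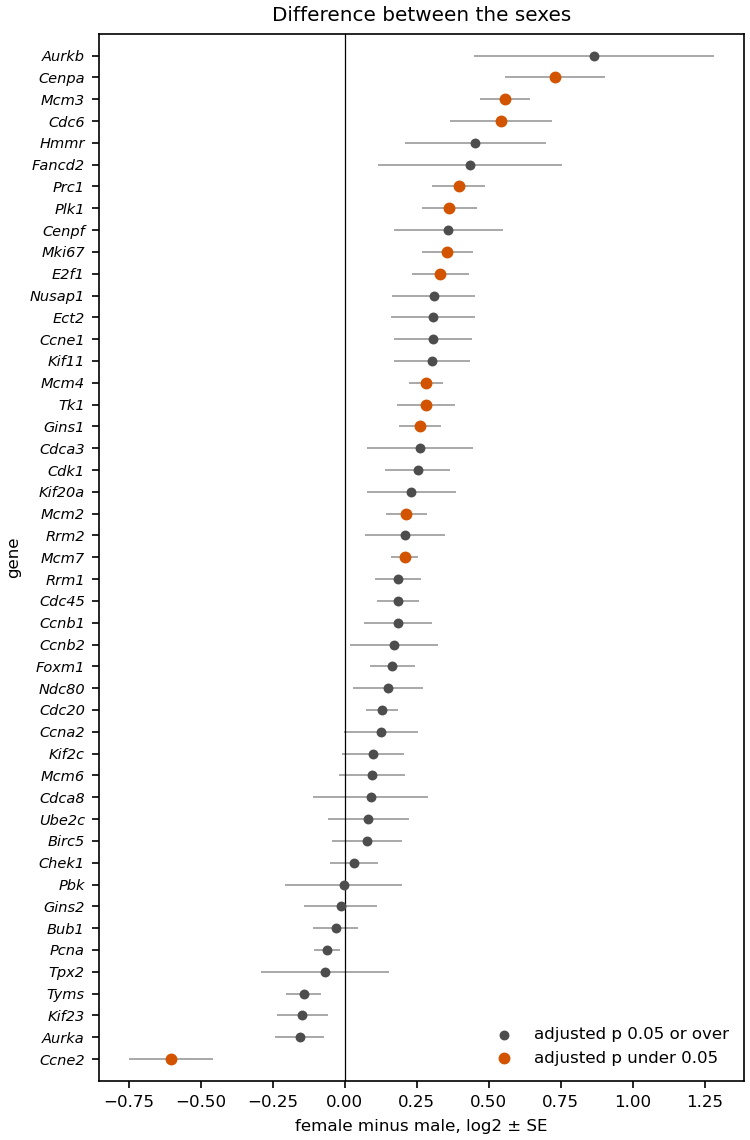
Female minus male log2 difference of each of the 47 genes, averaged over the 4 groups, with bars of 1 SE from limma; orange points have an adjusted p under 0.05. Most genes lie right of 0, Cenpa (0.73) and Mcm3 (0.56) among the highest that passed, and Ccne2 (-0.60) is the only one that passed to the left.

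The change from control differed between the sexes in 0, 0 and 1 of the 47 genes at 600, 1000 and 1500 ppm at an adjusted p under 0.05 (0%, 0% and 5.02% of all features). The gene was Mcm4, a subunit of the MCM helicase. Its relative log2 signal was -0.24, -0.23 and -0.23 in the control males and -0.60, -0.58 and -0.48 in the high-dose males, and -0.31, -0.31 and -0.15 in the control females and -0.06, 0.14 and 0.37 in the high-dose females. High-dose males lay below all controls and high-dose females above all controls. The change was -0.32 in males and 0.41 in females, a difference of 0.73 (SE 0.17; adjusted p = 0.0173 in limma). Controls and high-dose rats shared no slide, and with the slide as a random block the difference did not pass the adjusted test. The mean of both Mcm4 probes gave a difference of 0.42, which did not pass either.

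From rat to rat, most of the genes moved together. After removal of the group means, the median Pearson r between pairs of the 45 genes measured on all 24 arrays was 0.39, against 0.01 over 21079 features. It was 0.38 after removal of group and sex means and 0.26 without rat 36. The genes with the highest median r with the others were Kif20a (0.66), Plk1 (0.65), Ect2 (0.65), Nusap1 (0.64) and Tk1 (0.64). Cdk1 had 0.60 and Mki67 0.62. Ccne2 (-0.30), Aurkb (-0.12), Pcna (-0.11), Tyms (-0.02) and Gins2 (-0.01) did not follow them. The probes of Ccne2 and Gins2 were well above background on only 16 and 18 of the 24 arrays. These values describe 24 arrays whose genes share library, array and slide.

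Other genes of the pathway were taken from 4 fixed lists. As background, 0.616%, 1.64% and 1.22% of all features were called at 600, 1000 and 1500 ppm, and 50.4%, 48.7% and 46.2% were below control. Of 24 other replication genes, 0 were called at any dose and 19, 15 and 13 were below control at 600, 1000 and 1500 ppm, with Fen1, the flap endonuclease, at -0.28 at 600 ppm (adjusted p = 0.997 in limma). Of 19 other mitosis genes, 0 were called and 15, 14 and 15 were below control, with Spc25, a partner of Ndc80, at -0.47 at 1500 ppm (adjusted p = 0.706). Of 11 cyclin, kinase and activator genes of G1, 0 were called, and Myc was lower by 0.42 at 1000 ppm and by 0.41 at 1500 ppm on the log2 scale (adjusted p = 0.515 and adjusted p = 0.497 in limma). Of 17 brakes of the cycle, 1 was called lower at 1500 ppm (0.522% of all features): Btg2, an antiproliferative gene, at -0.75 (SE 0.20; adjusted p = 0.349).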

How the data were processed

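Lung RNA of 24 rats was measured on one-colour Agilent arrays. Groups and sexes came from the labels. The deposited intensity is the processed signal of Feature Extraction 11.5.1.1 (named in the submitters' processing notes), which the authors left background-subtracted, detrended and unscaled between arrays. The values deposited for the whole series equal it within 0.1% for 99.6% of probes on the array that differs most, and 0 of its columns were unmapped.

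Spots marked as outliers were dropped and the rest averaged into 30367 probes, of which 60.4% were named by accession through RefSeq (GRCr8). Log2 signals were set to the 75th percentile of each array. A probe stayed if well above background on at least 5 of 6 arrays of any group, and the probe with the highest mean stood for its gene. R 4.3.3 with limma 3.58.1 and data.table (version 1.17.8) gave each dose against control (24 arrays, 4 groups), the slope, the sex difference and its interaction with dose, adjusted over 21255 features. Named members are a fixed set (Mki67, Cdk1, Ccnb1, Pcna, Mcm2, Rrm2, E2f1, Fancd2), those called, and the 3 highest and 3 lowest differences at each dose; others were named after their values were seen. The members and lists were chosen with earlier results of these data known. Alternatives changed the background correction, scaling, filter, probe rule, test, covariates and slide, and left out each rat.

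The high-dose comparison was also tested on simulated data (21080 features). The simulated noise was normal and independent between genes and rats, without the sex, slide and gene-to-gene patterns of the real data. Of 200 genes changed 2-fold, 94.5% were called in the right direction, against 39% of those changed 1.5-fold and 9.5% of those changed 1.3-fold. A change of 1.5-fold lies at the threshold itself, so many such estimates fall short of it by construction. In the same order, 191, 209 and 183 unchanged features were called too. In the real data 260 features were called at 1500 ppm, a count that the simulated ones cannot be used to judge, since those patterns were left out. The rates were not estimated for the cell cycle genes. Their median SD within groups was larger, 0.31 against 0.23 over all features.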

Additional observations from a re-analysis of the deposited data

Results flagged for a closer look

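Of 96 sets of 6 rats, 9 held a rat whose gap to its nearest neighbour was a large share of the range of its group. The usual rate of about 1 in 20 is for independent sets and is no baseline for these. They share the same rats, their genes move together, and some of the genes were named by their values. In 6 of the 9, high-dose rat 36 was the highest: Cdk1 (0.837 of the range), Mki67 (0.788), the mean of the members (0.721), Plk1 (0.719), Ccne1 (0.685) and Cenpa (0.628). Middle-dose rat 31 was the highest for Fancd2 (0.711), low-dose rat 28 the highest for Pcna (0.728), and middle-dose rat 32 the lowest for Pcna (0.679). The change of Mcm4 at 1500 ppm differed between the sexes by 0.73 on the log2 scale, a difference tested by the interaction term of limma.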

How the results depend on the processing

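The cause of each shift below was not tested. Called genes at 600 ppm numbered 0 with normexp, with slide as a fixed or random block, with the methods' t-test and when genes had to be detected on all 24 arrays, and 2 with sex as a covariate. Of all features, 56 were called higher and 105 lower with sex as a covariate. With normexp it was 8 and 28, with a fixed slide block 119 and 108, and with a random block 43 and 105. Of the 18738 features detected on all 24 arrays it was 22 and 28. Genes at an unadjusted p under 0.05 at 600 ppm numbered 0 with normexp or a fixed slide block, 1 with the unscaled series table, the filter on all 24 arrays or a random slide block, and 4 with sex as a covariate or 1 dose at a time. At 1000 ppm, normexp gave 2 called, 2 at an unadjusted p under 0.05 and a median of -0.43 (all features -0.13). Of all features it called 73 higher and 329 lower there. The count at an unadjusted p under 0.05 was 1 with the filter on all 24 arrays and 4 with the t-test or 1 dose at a time. At 1500 ppm that count was 16 with the series table, where 64.5% of all features were below control (46.2% in the main fit). It was 3 with 1 dose at a time and 2 with a fixed slide block. The fixed slide block called 1, and of all features it called 204 higher and 201 lower. The interaction at 1500 ppm gave 0 genes with the series table, the probe mean and either slide block, and 2 with the filter on all 24 arrays. The sexes differed in 7 genes with normexp, 6 with the series table and 8 with a random slide block (14.8% of all features). Where no value for all features stands beside a count in this paragraph, none was taken.

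Signs turned with normexp for Plk1 (-0.011) and Bub1 (-0.033) at 600 ppm, Aurkb (-0.088) and Fancd2 (-0.43) at 1000 ppm, and Ccne1 (-0.16) at 1500 ppm. With a fixed slide block they turned for Bub1 (-0.072) and Hmmr (0.24) at 600 ppm, Fancd2 (-1.24) and Hmmr (0.75) at 1000 ppm, and Ccne1 (-0.31) at 1500 ppm. Fancd2 at 1000 ppm was -0.15 with a random slide block, and E2f1 at 1500 ppm -0.14 with the probe mean.

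Leaving out 1 rat at a time gave 0 to 3 called at 600 ppm and 0 to 6 at 1500 ppm. Without rat 26, which gave 3, 54 of all features were called higher and 147 lower at 600 ppm. Without rat 36, which gave 6, it was 102 and 134 at 1500 ppm. Counts at an unadjusted p under 0.05 were 0 to 5 at 600 ppm and 0 to 2 at 1000 ppm. At 1500 ppm they were 3 (without control rat 3) to 22 (without rat 36, where 6.46% of all features passed). The interaction gave 1 to 2 genes. Plk1 ran from -0.00041 to 0.15 at 600 ppm and from -0.064 to 0.17 at 1500 ppm, and Aurkb from -0.048 to 0.59 at 1000 ppm. The median of the members stayed below 0 at each dose under all these settings. Beside the value above, it moved by over 1.5 times at 600 ppm with normexp (-0.26, all features -0.076) and without control rat 2 (-0.17). Toward 0 it moved there with the series table (-0.042, all features 0.070) and a fixed slide block (-0.072). At 1000 ppm it moved without rat 31 (-0.18) and toward 0 with the series table (-0.011, all features 0.11). At 1500 ppm it moved with a fixed slide block (-0.31), with normexp (-0.31, all features -0.070) and without rat 36 (-0.32). Relative to the median of all features, the series table gave -0.112 and -0.120 at 600 and 1000 ppm, as in the main fit. Keeping outlier spots was an alternative chosen after seeing the data. No paired analysis was possible because no 2 groups share a rat number. The number of arrays and the signal of dim probes over background limit precision.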
